A study of Mus musculus with 4 samples.

Results

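Circular RNAs (circRNAs) arise when the splice donor at the end of an exon is joined back to a splice acceptor upstream of it, which closes the spliced exons into a circle. The circles of 5 mouse genes with roles at the cilium or the centrosome, or listed with them, were described: Cfap54, Sdccag8, Rttn, Pde4dip and Ccdc30. Every circRNA of the deposited count table was taken whose start, end or both lay exactly on an exon boundary of one of these genes. This gave 79 of the 23980 circRNAs of the table: 30 of Cfap54, 25 of Sdccag8, 10 of Ccdc30, 8 of Pde4dip and 6 of Rttn. Both ends lay on boundaries in 70 of them (88.6%), and 1 end did in 9 (8 of Sdccag8 and 1 of Ccdc30). Over the whole table both ends did in 83.0%, where circRNAs with no end on a boundary are counted too. The genes had been selected on the counts of these same libraries, since circles of Ccdc30, Cfap54 and Pde4dip were already known to be called between them. Their levels are therefore given as a description. Where a circle is named as called, that call over the whole table is part of what chose the genes and is no independent evidence.

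The cilium is a microtubule projection of the cell surface that grows from a basal body, a modified centriole. Most neurons and astrocytes of the brain carry a single immotile primary cilium that receives signals, while ependymal cells, which line the ventricles, and the choroid plexus carry cilia in tufts; the ependymal ones beat and move cerebrospinal fluid. The centrosome is a pair of centrioles in a protein matrix and organises microtubules. CFAP54 belongs to the central apparatus of motile cilia. SDCCAG8 is a centrosome and basal body protein that is mutated in a ciliopathy of kidney and retina. Rotatin (Rttn) acts in centriole assembly and is mutated in malformations of the cerebral cortex. Myomegalin (Pde4dip) anchors phosphodiesterase 4D at the Golgi and the centrosome. Ccdc30 encodes a coiled-coil protein.

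There were 4 libraries, 1 in each group. For 3 of them the middle cerebral artery of mice was occluded permanently with an intraluminal filament (MCAO, a model of ischemic stroke), tissue was taken at 3 h, and each library holds RNA mixed from 6 mice. They are the part of the infarct core that faces the frontal lobe (frontal core, core frontal in the plots), the part that faces the occipital lobe (occipital core, core occipital in the plots) and the penumbra, a rim of threatened tissue. The library of the sham operation holds cortex matched in position to the core and the penumbra; the sources used here name neither its number of mice and time nor the strain, sex and age of any mice. No group has a replicate, so a difference is between 2 libraries of pooled RNA, and variation between mice or pools is out of sight. In these pieces of bulk tissue, fewer cells of a type and less RNA per cell cannot be told apart.

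The libraries held 121393 circRNA counts in the frontal core, 83090 in the occipital core, 96349 in the penumbra and 106558 in sham. A single count was worth 8.24 to 12 CPM (circRNA counts scaled to a library total of 1000000), and 3 counts, set in place of a 0 for a ratio, 24.7 to 36.1 CPM. Values in brackets are 95% intervals (Poisson for a level, exact conditional for a ratio of CPM, Clopper-Pearson for a share) and cover counting error only. The circles of marker genes of cell types were read as well. All 8 neuronal marker genes had circles, summing to 21800 to 24000 CPM, while none of 6 microglial genes had any. In every library most of the neuronal sum came from Rims1 and Rims2. Snap25 and Camk2a had few counts, and Snap25 had none in the occipital core. The neuronal sum thus rests mainly on a few genes, and its use as a measure of cell content was not tested. Of 8 oligodendrocyte genes 4 had circles (74.1 to 144 CPM), and of 6 endothelial genes 1 did, with at most 1 count per library. Of 7 astrocyte genes 2 had circles, at 65.7 CPM in sham (7 counts) and 115 to 135 CPM in the other libraries (11 to 14 counts); the part of these cells in the results was not tested.

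The back-splice junctions that carry the results are printed first. In a circle of annotated exons the junction is the only part that the linear mRNA lacks. Each line holds the last 25 bases of the circle's last exon in lower case and then, in capitals, the first 25 bases of its first exon, 5′ to 3′ on the strand of the gene. Bases were read from GENCODE M21 transcripts (GRCm38). The first group of 4 belongs to Cfap54 on the minus strand of chromosome 10.
Cfap54 exons 57 to 61: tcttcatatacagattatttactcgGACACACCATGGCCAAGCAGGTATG
Cfap54 exons 57 to 64: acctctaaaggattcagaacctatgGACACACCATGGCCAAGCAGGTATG
Cfap54 exons 57 to 66: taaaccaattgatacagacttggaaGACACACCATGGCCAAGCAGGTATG
Cfap54 exons 65 to 66: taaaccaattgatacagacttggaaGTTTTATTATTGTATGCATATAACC
The capitals of the first 3 are the same, since all 3 circles start at exon 57, and the lower-case parts of the last 2 are the same, since both end with exon 66. The junctions lie at chr10:92868723-92878612, chr10:92829653-92878612, chr10:92815881-92878612 and chr10:92815881-92821131, in the order printed.

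In Pde4dip, on the minus strand of chromosome 3, 2 of the 3 circles that start at exon 2 are printed. They differ in their last exon, and the circle with the most counts joins exons 5 to 8.
Pde4dip exons 2 to 3: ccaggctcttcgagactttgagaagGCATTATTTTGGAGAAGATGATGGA
Pde4dip exons 2 to 4: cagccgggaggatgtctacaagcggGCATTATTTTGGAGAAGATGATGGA
Pde4dip exons 5 to 8: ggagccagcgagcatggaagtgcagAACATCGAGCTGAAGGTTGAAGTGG
They lie at chr3:97841634-97843714, chr3:97824215-97843714 and chr3:97792739-97796808. In Sdccag8, on the plus strand of chromosome 1, 2 of the 4 circles that end with exon 12 are printed. They differ in the first exon, at chr1:176824752-176878106 and chr1:176831057-176878106.
Sdccag8 exons 2 to 12: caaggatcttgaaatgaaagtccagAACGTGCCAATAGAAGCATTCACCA
Sdccag8 exons 5 to 12: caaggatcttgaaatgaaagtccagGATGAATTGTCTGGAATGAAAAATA

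The shortest circles called between libraries are given whole, with the second of their 2 exons in capitals. The circle of Cfap54 exons 65 and 66 holds 107 and 142 bases of coding sequence, 249 in all, with a GC content of 39.8%.
Cfap54 exons 65 to 66, whole: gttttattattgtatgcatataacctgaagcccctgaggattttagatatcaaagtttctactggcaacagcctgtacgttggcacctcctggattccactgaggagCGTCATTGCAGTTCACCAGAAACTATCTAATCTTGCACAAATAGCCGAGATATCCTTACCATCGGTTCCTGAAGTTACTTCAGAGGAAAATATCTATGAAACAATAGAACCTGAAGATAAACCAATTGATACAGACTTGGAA
The circle of Pde4dip exons 2 and 3 holds 56 and 152 bases, 208 in all, with a GC content of 52.9%; the median over all circRNAs with a spliced sequence was 47.6%.
Pde4dip exons 2 to 3, whole: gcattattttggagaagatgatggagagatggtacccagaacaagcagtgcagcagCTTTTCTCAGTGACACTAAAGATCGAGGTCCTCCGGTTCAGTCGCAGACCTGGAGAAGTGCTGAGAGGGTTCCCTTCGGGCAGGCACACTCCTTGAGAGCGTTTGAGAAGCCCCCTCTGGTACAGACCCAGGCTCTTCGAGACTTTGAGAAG
The most abundant circle of Ccdc30, on the minus strand of chromosome 4, ends with exon 10 (chr4:119339761-119339873, 113 bases), which is shown with its last 25 bases, those beside the back-splice, in capitals.
Ccdc30 exon 10: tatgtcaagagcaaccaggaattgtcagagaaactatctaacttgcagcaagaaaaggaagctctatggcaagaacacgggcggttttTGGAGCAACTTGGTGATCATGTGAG
The other end of that circle lies in an intron, whose sequence is not printed here.

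**Figure D1:**
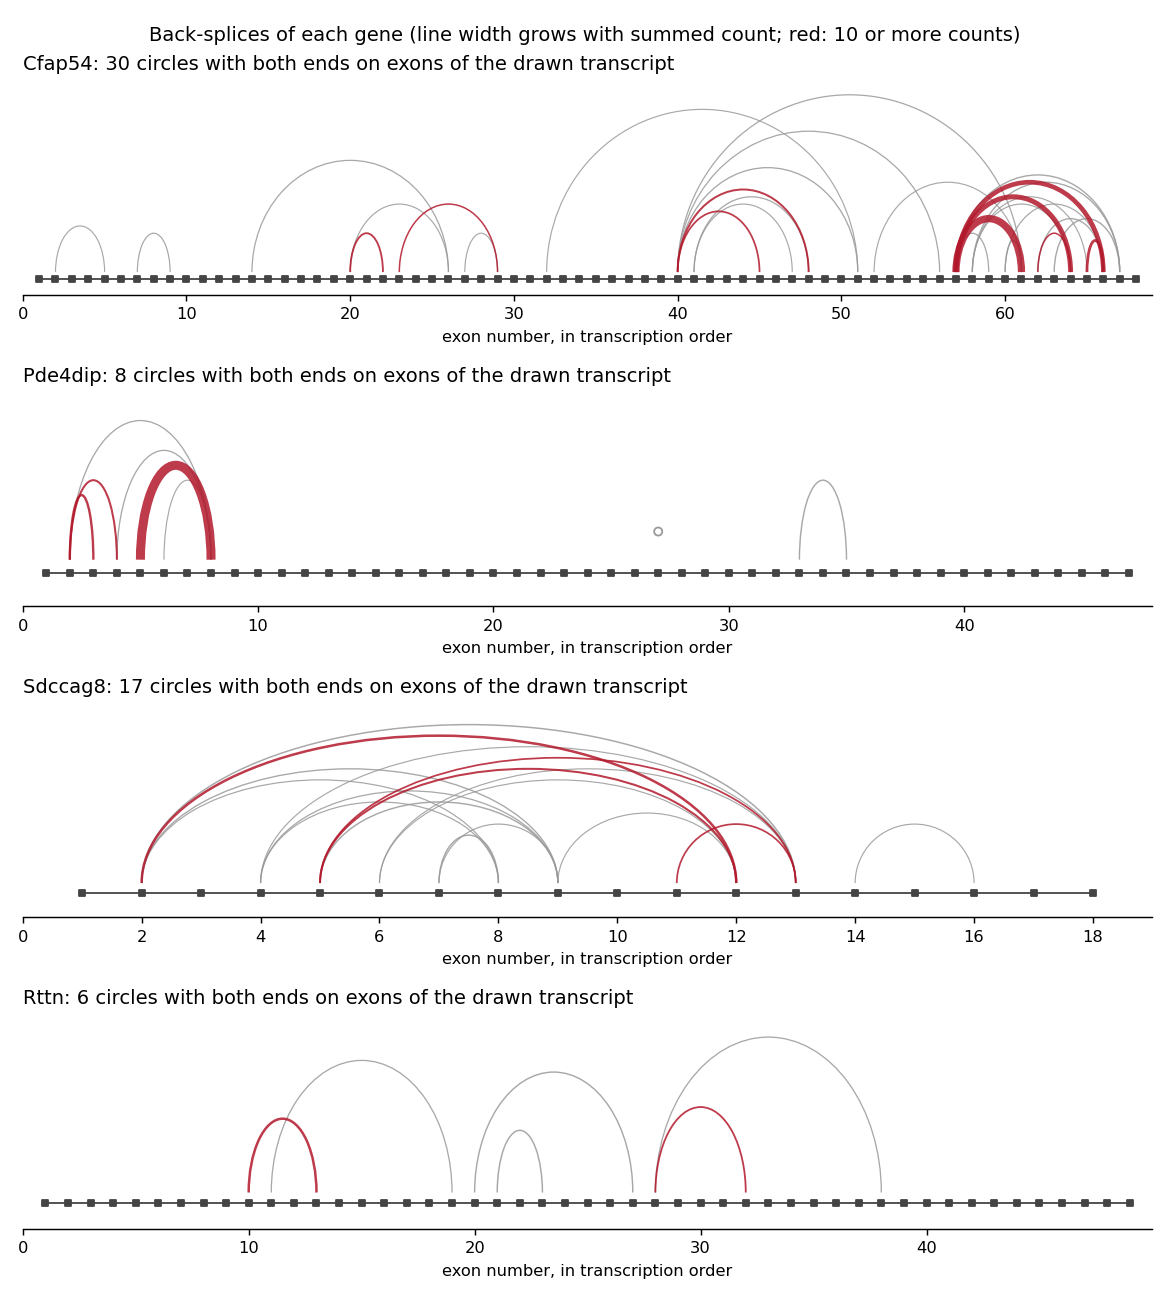
Exons of Cfap54, Pde4dip, Sdccag8 and Rttn are drawn as squares in transcription order along the x axis (exon number, not to genomic scale), and each arc joins the first and last exon of a circle; line width grows with the count summed over the 4 libraries, and circles of 10 or more counts are red. Arcs crowd over exons 57 to 67 of Cfap54 and exons 2 to 8 of Pde4dip, and the open dot marks a circle of Pde4dip exon 27 alone.

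The 79 circles held 1144 counts: 347 in the frontal core, 241 in the occipital core, 250 in the penumbra and 306 in sham. Scaled to depth these are 2858, 2900, 2595 and 2872 CPM, a span far narrower than that of single genes. Most circles were rare, as in the whole table: 22 had 10 or more counts over the 4 libraries (27.8%, compared with 28.1% of all circRNAs) and 57 had fewer. All 4 libraries detected 17 of the circles (21.5%), compared with 30.4% of all circRNAs in the table, and 9 (11.4%, compared with 10.4%) were seen in a single library. As a set the circles had a median of 5 exons and 774 spliced bases. Over all circRNAs with a spliced sequence it was 4 exons and 540 bases. Cfap54, Sdccag8 and Rttn lay above that (1002, 874 and 896 bases). Ccdc30 (3.5 exons, 520 bases) and Pde4dip (3 exons, 466 bases) lay below it. The genomic span of the 79 circles had a median of 22.8 kb, compared with 12.6 kb. In Ccdc30 it was 10.4 kb and in Pde4dip 3.82 kb. Only 1 of 69 with exon numbers was a single exon (1.45%, compared with 4.25%), and 9 started at exon 2 (13.0%, compared with 24.2%). Of these 9, 3 were from Pde4dip (37.5% of its circles). A coding circle whose length is a multiple of 3 keeps its reading frame across the junction; 18 of 68 coding members had such a length (26.5%, compared with 39.2%), 8 of them from Cfap54, 6 from Sdccag8 and 0 from Rttn.

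**Figure D2:**
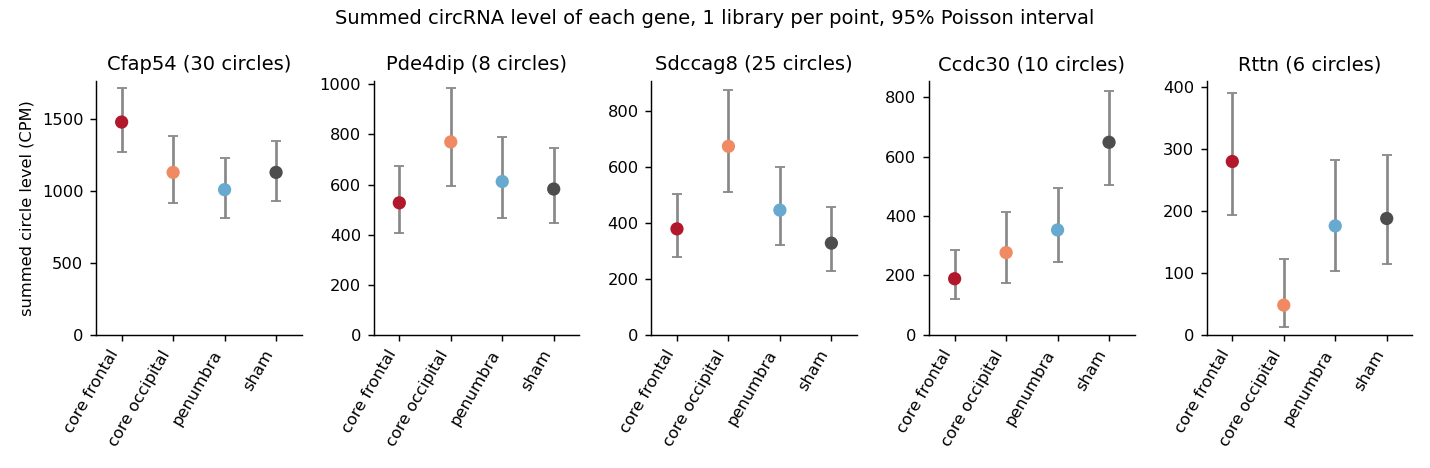
Summed circle level of each gene (y axis, CPM, its own scale in each panel) in the 4 libraries (x axis), with 1 library per point and bars for the 95% Poisson interval. Ccdc30 was highest in sham, Sdccag8 in the occipital core, and Rttn lowest in the occipital core at 48.1 CPM.

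Cfap54 (ENSMUSG00000020014.17, chr10:92775619-93081618, minus strand, 68 exons) gave 30 circles and 491 counts: 180 in the frontal core, 94 in the occipital core, 97 in the penumbra and 120 in sham. In CPM the order was the penumbra (1010), the occipital core (1130), sham (1130) and the frontal core (1480). The frontal core stood above each of the others, at 1.32 [1.04–1.67] of sham and 1.31 [1.02–1.70] of the occipital core, with the penumbra at 0.679 [0.525–0.874] of it. The intervals of the other 3 ratios, among the occipital core, penumbra and sham, reached 1. In the 28 circles called in no comparison, frontal to occipital core was 0.999 [0.752–1.33] and the frontal core to sham 1.24 [0.934–1.64]. Penumbra to the frontal core was 0.782 [0.581–1.05] in them. Leaving out the called circles is a choice made on these data, so this split is a description. Among the 1509 host genes with 50 or more circle counts, the ratio of the frontal core to sham ran from 0.543 to 1.84 between the 5th and the 95th percentile, and this gene lay inside that range. The range pools all these hosts, and hosts of like count were not compared apart.

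A single acceptor site collected most of the Cfap54 counts. The acceptor of exon 57 took part in 5 of the 30 circles and in 313 of the 491 counts (63.7%): 122 in the frontal core, 51 in the occipital core, 69 in the penumbra and 71 in sham. From there the back-splice came most often from the donor of exon 61, 64 or 66. The circle of exons 57 to 61 (591 bases, a multiple of 3) had 46, 30, 29 and 32 counts in the frontal core, the occipital core, penumbra and sham. The 4 levels lay close together: its largest ratio, the frontal core to sham, was 1.26 [0.786–2.05], and the intervals of all 6 ratios reached 1. Exons 57 to 64 (1154 bases) had 35, 14, 21 and 16 counts in the same order. The frontal core was the highest, at 1.92 [1.04–3.72] of sham and 1.71 [0.898–3.44] of the occipital core, and neither difference was called.

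The circle of Cfap54 exons 57 to 66 (1403 bases) had 39 counts in the frontal core, 5 in the occipital core, 19 in the penumbra and 16 in sham. The difference between the cores stood out: 321 CPM [228–439] in the frontal and 60.2 [19.5–140] in the occipital part, a ratio of 5.34 [2.10–17.4], called higher by the rule of an adjusted p under 0.05 in Fisher's exact test and a 2-fold ratio. Neither core was called against sham, with ratios of 2.14 [1.17–4.10] for the frontal core and 0.401 [0.115–1.14] for the occipital core, and sham lay between the cores. Penumbra to the occipital core was 3.28 [1.18–11.2], not called. The call ended without the count filter and under an edgeR exact test with the coefficient of variation set to 0.2. Of the whole table, 2 and 0 circRNAs were then called higher for the frontal against the occipital core, beside 7 under the main rule. Among the circles from exon 57, those ending at exon 66 made up 32.0% [23.8–41.0] in the frontal core, 9.80% [3.26–21.4] in the occipital core, 27.5% [17.5–39.6] in the penumbra and 22.5% [13.5–34.0] in sham. The share ending at exon 61 was 37.7% [29.1–46.9] in the frontal core and 58.8% [44.2–72.4] in the occipital core. These shares have 1 total, and the level of the exon 61 circle was close in both cores (379 and 361 CPM, a ratio of 1.05 [0.648–1.72]).

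The circle of Cfap54 exons 65 and 66, whose sequence is given above, had 17 counts in the frontal core, 4 in the occipital core, 1 in the penumbra and 16 in sham. The frontal core and sham were alike, the occipital core was lower and the penumbra almost empty. Penumbra to the frontal core was 0.0741 [0.00177–0.473] and was called lower. Penumbra to sham was nearly the same, 0.0691 [0.00165–0.445], and was not called, and the occipital core to sham was 0.321 [0.0780–0.994], also not called. This call ended with TMM factors, with the GC trend removed, with no count filter, with a minimum of 30 counts and under the edgeR test. For the penumbra against the frontal core, the whole table had 2 called lower with no count filter and 1 under the edgeR test. With the other settings named it had 11 to 17, beside 16 under the main rule. Of the circles that end at exon 66, 4.76% [0.120–23.8] began at exon 65 in the penumbra, compared with 28.8% [17.8–42.1] in the frontal core, 30.8% [9.09–61.4] in the occipital core and 48.5% [30.8–66.5] in sham. Among circles ending at exon 66, the penumbra thus had nearly always the long one from exon 57 (19 of 21 counts). Sham had the long and the short one equally (16 and 16 of 33 counts).

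The other 26 circles of Cfap54 held 151 counts, of which 5 circles with 10 or more counts are given here. Exons 40 to 48 (chr10:92908833-92943019) had 11, 2, 4 and 3 counts in the frontal core, the occipital core, penumbra and sham. Exons 20 to 22 had 4, 4, 4 and 5, and exons 40 to 45 had 4, 6, 2 and 3. Exons 62 to 64 had 3, 0, 1 and 6, and exons 23 to 29 had 4, 2, 3 and 1. Exons 40 to 48 had the most counts in the frontal core. It reached the count minimum for a test in 3 of the 6 comparisons and exons 40 to 45 in 1, without a call, and the other three circles were never tested. The exon 40 acceptor was the next in use, in 5 circles with 48 counts: 20, 13, 8 and 7. CFAP54 works in motile cilia, so the marker genes of ependymal cells were read beside it. Of 12, 4 had any circle, and their sum was 566 to 692 CPM, most of it from Rfx3 (530 to 610 CPM), which other cells express too; Foxj1, Dnah12 and Hydin had 0 circle counts in all 4 libraries. Enpp2 was the only 1 of 8 choroid plexus markers with circles, at 65.7 to 114 CPM. The part of these cells in the Cfap54 values was not tested.

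**Figure D3:**
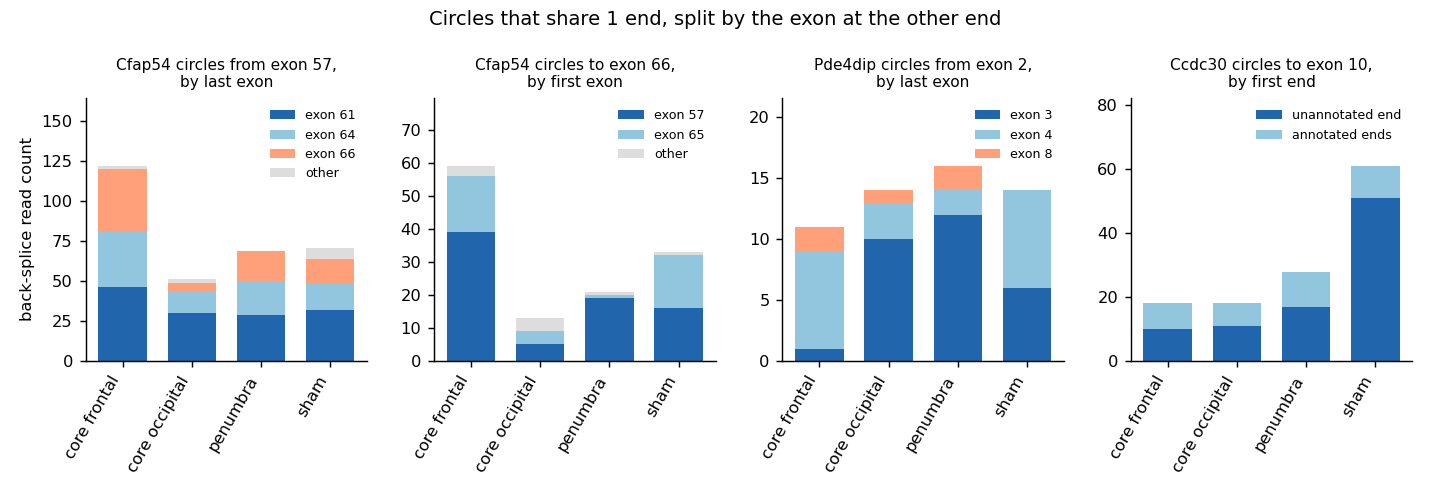
Back-splice read counts (y axis) in the 4 libraries (x axis) of circles that share 1 end, stacked by the exon at the other end; each panel has its own scale. The occipital core has few circles from Cfap54 exon 57 to exon 66, penumbra has 1 count from exon 65 to exon 66, the frontal core has 1 count of Pde4dip exon 2 to 3, and the unannotated end of Ccdc30 has the most counts in sham.

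Sdccag8 (ENSMUSG00000026504.17, chr1:176814660-177020437, plus strand, 18 exons) gave 25 circles and 180 counts: 46 in the frontal core, 56 in the occipital core, 43 in the penumbra and 35 in sham. Its levels were 379, 674, 446 and 328 CPM, which puts the occipital core on top. The occipital core to sham was 2.05 [1.32–3.23], and frontal to occipital core 0.562 [0.372–0.846]. The steps from sham to the frontal core (1.15 [0.727–1.84]), from the frontal core to the penumbra (1.18 [0.759–1.82]) and from the occipital core to the penumbra (0.662 [0.434–1.00]) had intervals that reached 1. Over the same 1509 host genes the 95th percentile of the occipital core to sham was 1.90. When only the 17 circles with both ends on exon boundaries were summed, the occipital core to sham was 1.65 [0.978–2.81].

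The counts of Sdccag8 were spread over many circles. Only 5 of the 25 reached the count minimum in any comparison, and none of these 5 was called. The circle of exons 2 to 12 (1418 bases) had 5, 10, 10 and 7 counts in the frontal core, the occipital core, penumbra and sham. The frontal core was the lowest, and its widest ratio, frontal to occipital core, was 0.342 [0.0918–1.10]. For exons 5 to 12 (1065 bases, a multiple of 3) the counts were 10, 3, 8 and 0. Sham alone had no count. With its 0 set to 3 counts, the circle was 2.93-fold higher in the frontal core and 2.95-fold higher in the penumbra. These values leave out the counting error of the 10 and 8 counts, so they are no lower limits. The first difference was not called, and the second, under 10 counts, was untested. Exons 5 to 13 had 3, 5, 6 and 1 counts, and exons 11 to 13 had 4, 1, 1 and 8. The acceptor of exon 5 was low in sham over its 4 circles, with 22, 10, 14 and 3 counts, and the acceptor of exon 11 was high there over its 2, with 6, 1, 2 and 10. The donors most used were those of exon 12 (57 counts) and exon 13 (48 counts, in 7 circles).

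Both ends lay on exon boundaries in 68.0% of the Sdccag8 circles, compared with 83.0% of all circRNAs in the table. A donor at chr1 position 176888787, in intron 12 and 10681 bases past exon 12, was joined to the acceptors of exons 2, 5, 6, 10 and 11 in 5 circles with 32 counts: 4 in the frontal core, 12 in the occipital core, 10 in the penumbra and 6 in sham. The most frequent of them, from exon 6, had 0, 5, 5 and 2 counts. An acceptor at 176866409, in intron 9, was joined to the donors of exons 13 and 16 in 2 circles with 1, 7, 0 and 1 counts. The table also holds a circle between these unannotated ends themselves (chr1:176866409-176888787; 2, 1, 0 and 1 counts), which lies just outside the selection because neither end is on an exon boundary. An acceptor at 176824739 lies 13 bases before exon 2 and had 2 counts. Together the 8 circles with 1 unannotated end had 5, 20, 11 and 7 counts, highest in the occipital core.

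Rttn (ENSMUSG00000023066.10, plus strand, 49 exons, at chr18:88971790-89131016) gave 6 circles and 75 counts: 34 in the frontal core, 4 in the occipital core, 17 in the penumbra and 20 in sham. The occipital core stood alone at 48.1 CPM [13.1–123], compared with 280 [194–391] in the frontal core, 176 [103–283] in the penumbra and 188 [115–290] in sham. Frontal to occipital core was 5.82 [2.07–22.6] and the occipital core to sham 0.256 [0.0637–0.766], both outside the range of the middle 90% of the host genes (0.538 to 1.89 and 0.508 to 1.90). Here too, hosts of like count were not compared apart. Penumbra to the occipital core was 3.67 [1.20–15.0]. Penumbra to sham was 0.940 [0.462–1.89] and the frontal core to sham 1.49 [0.835–2.74], and their intervals reached 1. All 4 counts in the occipital core came from the circle of exons 10 to 13 (613 bases), which had 13, 4, 6 and 9 counts. The other 5 circles had 21, 0, 11 and 11 counts together. With the 0 set to 3 counts, the frontal core was 4.79-fold higher than the occipital core in them, leaving out the counting error of the 21. Exons 28 to 32 (691 bases) had 3, 0, 4 and 9 counts and was thus highest in sham. Circles of exons 20 to 27 (6, 0, 2 and 0 counts), 11 to 19 (4, 0, 1 and 0) and 28 to 38 (5, 0, 0 and 0) had no count in the occipital core or sham, at no more than 8 counts each. Of the 6 circles of Rttn 2 were tested, those of exons 10 to 13 and 28 to 32, and neither was called.

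Pde4dip (ENSMUSG00000038170.15, chr3:97689824-97888707, minus strand, 47 exons) gave 8 circles and 249 counts: 64 in the frontal core, 64 in the occipital core, 59 in the penumbra and 62 in sham. From lowest to highest the levels were 527 CPM in the frontal core, 582 in sham, 612 in the penumbra and 770 in the occipital core. Only the ratio of the lowest to the highest, frontal to occipital core, had an interval that did not reach 1 (0.684 [0.476–0.983]). The other 5 of the 6 reached it. In the 7 circles called in no comparison, frontal to occipital core was 0.799 [0.546–1.17]. The circle of exons 5 to 8 (495 bases, a multiple of 3) made up 177 of the 249 counts (71.1%), with 49, 49, 34 and 45. Its levels were 404, 590, 353 and 422 CPM, highest in the occipital core. Penumbra to the occipital core was 0.598 [0.375–0.946], not called, and the intervals of the other 5 ratios reached 1, among them the occipital core to sham at 1.40 [0.913–2.14]. The donor of exon 8 closed 4 of the 8 circles and 189 counts (75.9%).

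The share of each exon that closed the circles from exon 2 of Pde4dip differed between libraries, at 11 to 16 counts per library. The acceptor of exon 2 had 11 counts in the frontal core, 14 in the occipital core, 16 in the penumbra and 14 in sham. The circle of exons 2 and 3, printed above, had 1, 10, 12 and 6 of these counts. The frontal core was the low library, with 1 count. Penumbra to the frontal core was 15.1 [2.24–646] and was called higher, and frontal to occipital core was 0.0684 [0.00158–0.481] and was not called. Exons 2 to 4 (319 bases) had 8, 3, 2 and 8 counts, with the most in the frontal core and sham. Every library held both circles. As shares of the circles from exon 2, exon 3 closed 9.09% [0.230–41.3] in the frontal core, 71.4% [41.9–91.6] in the occipital core, 75.0% [47.6–92.7] in the penumbra and 42.9% [17.7–71.1] in sham, and exon 4 closed 72.7% [39.0–94.0], 21.4% [4.66–50.8], 12.5% [1.55–38.3] and 57.1% [28.9–82.3]; these shares have 1 total, so they do not vary independently. For both exons the interval of sham overlapped that of every other library. The call of exons 2 to 3 rests on 13 counts. It ended with no count filter, with 30 counts as the minimum, with the GC trend removed and under the edgeR test. The 5 remaining circles had 2 to 8 counts each.

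Ccdc30 (ENSMUSG00000028637.15, chr4:119322893-119415521, minus strand, 15 exons) was the gene that set sham apart. Its 10 circles had 149 counts: 23 in the frontal core, 23 in the occipital core, 34 in the penumbra and 69 in sham. From lowest to highest the levels were 189 CPM in the frontal core, 277 in the occipital core, 353 in the penumbra and 648 in sham. The steps between neighbours among the first 3 had intervals that reached 1 (frontal to occipital core 0.684 [0.367–1.28], penumbra to the occipital core 1.27 [0.729–2.27]), while penumbra to the frontal core was 1.86 [1.07–3.31]. All 3 ischemic libraries lay below sham: the frontal core at 0.293 [0.174–0.475], the occipital core at 0.427 [0.254–0.694] and the penumbra at 0.545 [0.350–0.833] of its level. They share the 1 sham library, so the 3 values are not independent.

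Most of this difference lay in a single circle. At chr4:119339761-119340684 it joins the donor of exon 10 to a point in intron 9, 811 bases beyond the start of exon 10 and 9046 bases from exon 9, where the annotation has no splice site. It had 10 counts in the frontal core, 11 in the occipital core, 17 in the penumbra and 51 in sham, or 82.4 CPM [39.5–151], 132 [66.1–237], 176 [103–283] and 479 [356–629]. The interval of sham overlapped none of the others. The ratio to sham was 0.172 [0.0779–0.343] in the frontal core and 0.277 [0.130–0.537] in the occipital core, both called lower, and 0.369 [0.2–0.649] in the penumbra, not called. With 30 counts as the minimum penumbra was called lower as well. Under the edgeR test neither core was called, and with no count filter the occipital core was not. In each of these cases 0 circRNAs of the whole table were called lower. The split by this circle, the most abundant of the gene, is a description, since its high count in sham also makes it the most abundant. The other 9 circles had 13, 12, 17 and 18 counts, and their ratios to sham were 0.634 [0.286–1.37], 0.855 [0.376–1.88] and 1.04 [0.506–2.15] in the frontal core, the occipital core and the penumbra.

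The donor of exon 10 was the hub of Ccdc30, with 5 of 10 circles and 125 of 149 counts (83.9%). Of these counts the unannotated end took 55.6% [30.8–78.5] in the frontal core, 61.1% [35.7–82.7] in the occipital core, 60.7% [40.6–78.5] in the penumbra and 83.6% [71.9–91.8] in sham. The 4 circles from annotated acceptors to exon 10 had 8, 7, 11 and 10 counts, which lay close together. The circle chr4:119339761-119368017, whose ends share no transcript, had 4, 3, 5 and 0 counts, and that of exons 7 to 10 had 4, 2, 0 and 5. Because the table gives no strand, the strand of the circle with the unannotated end was taken from the gene.

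**Figure D4:**
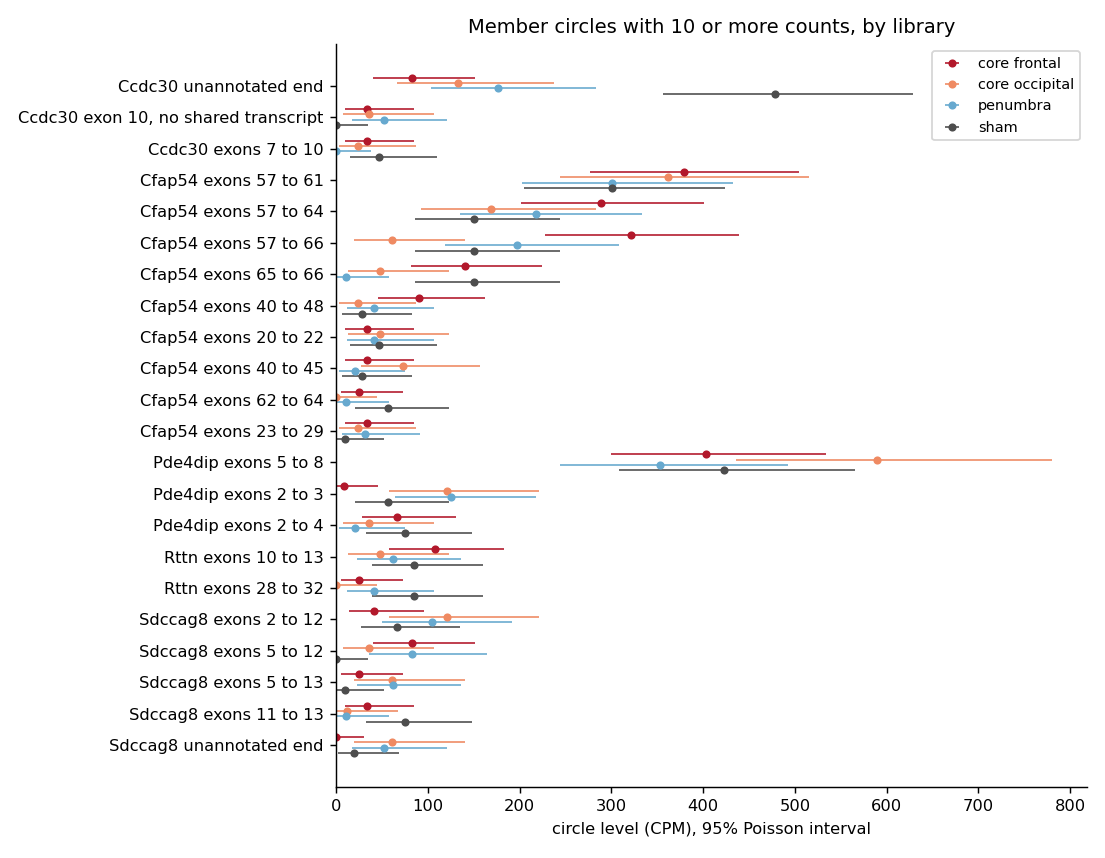
Level (x axis, CPM, with the 95% Poisson interval) of the 22 circles with 10 or more counts in the 4 libraries, coloured by library. The sham point of the Ccdc30 circle with the unannotated end (479 CPM) lies apart from the other libraries, and so does the occipital core point of Cfap54 exons 57 to 66 (60.2 CPM) from the frontal core.

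All 6 pairs of libraries were compared over the whole table, at a minimum of 10 counts summed over the pair, and the calls of the members are set beside the share called among all. These comparisons were used in choosing the genes, so nothing is read from the members' counts. Against sham, 0 of 11 members tested were called higher and 0 lower in the penumbra, where 0.0538% and 0.0% of all 3717 circRNAs tested were. In the frontal core 0 of 13 were called higher and 1 lower (0.289% and 0.458% of 4152), and in the occipital core 0 of 10 higher and 1 lower (0.292% and 0.175% of 3424). For the penumbra against the frontal core 1 of 12 was called higher and 1 lower (0.530% and 0.404% of 3962), and for the penumbra against the occipital core 0 of 11 in either direction (0.0303% and 0.0303% of 3301). For the frontal against the occipital core 1 of 13 was called higher and 0 lower (0.185% and 0.159% of 3780). At an unadjusted p under 0.05 the members counted 2, 4, 2, 2, 2 and 3 in this order of comparisons, where 11.3%, 14.2%, 12.6%, 12.8%, 7.03% and 11.8% of all circRNAs tested lay under it. Altogether 17 of the 79 members reached the count minimum in at least 1 comparison, and the remaining 62 were never tested. The median ratio of the tested members was 0.836, 0.956, 0.846, 0.775, 1.03 and 1.71, beside 1.01, 1.02, 0.962, 0.969, 1.01 and 1.05 over all circRNAs tested.

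**Figure D5:**
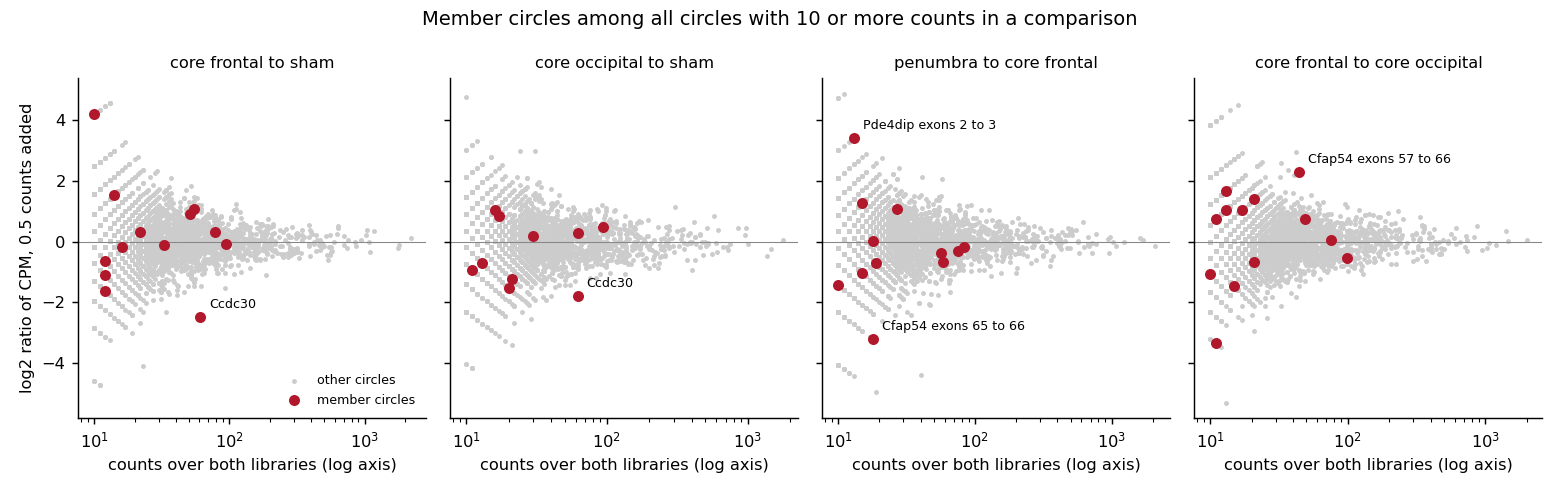
Each point is a circRNA that reaches 10 counts in the 2 libraries of a comparison together, plotted by that count (x axis, log scale) and its log2 ratio of CPM with 0.5 counts added to each library (y axis); member circles are red and called ones are labelled. The labelled circles lie at the edge of the cloud for their count, and most other members lie inside it.

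Other genes of the ciliary and centrosomal machinery gave circles as well. Of 90 genes of the motile axoneme, 24 had circles (69 circles, 516 counts), led by Rfx3, a transcription factor of ciliogenesis, Wdr78, an axonemal dynein intermediate chain, and Cfap36. Their sum was 1425 CPM in the frontal core, 1035 in the occipital core, 1370 in the penumbra and 1173 in sham, with Rfx3 at 610, 530, 550 and 535. Of 98 genes of ciliogenesis and ciliary transport, 55 had circles (238 circles, 2648 counts), led by Bbs9, a subunit of the BBSome, Kifap3, the adaptor of kinesin-2, and Ift81, a subunit of the intraflagellar transport complex. Their sum was 6953, 6102, 6435 and 6353 CPM, with Ift81 at 692, 373, 457 and 479 CPM. Of 93 genes of the centriole and pericentriolar material, 51 had circles (219 circles, 1870 counts), led by Rabgap1, Cntln and Pibf1, with sums of 4564, 4802, 4287 and 4730 CPM. The count minimum was reached in at least 1 comparison by 9 of the 69 circles of the motile axoneme, 40 of the 238 of ciliogenesis and 26 of the 219 of the centriole. None of these was called in any of the 6 comparisons; with 5 to 34 circles of a list tested at a time and at most 0.530% of all circRNAs called in a direction, nothing is read from that. The frontal core to the occipital core had the medians 1.64 (motile axoneme), 1.28 (ciliogenesis) and 0.989 (centriole), beside 1.05 over all circRNAs tested; the occipital core to sham had 0.727, 0.872 and 0.962, beside 0.962. The lists were drawn up with earlier results of these data known.

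By the profile of its circle levels over the 4 libraries, each gene was compared with the other 1508 host genes of 50 or more counts; likeness is the Euclidean distance between the shares of CPM in the libraries, over 4 points only. Nearest to Cfap54 were Trappc11 (distance 0.013), Pik3r1 (0.014) and Zfp644 (0.016), and nearest to Sdccag8 were Ntm (0.018), C2cd5 (0.019) and Nav2 (0.026). Nearest to Ccdc30 were Smarcc1 (0.038), Fbxw11 (0.041) and Gm34237 (0.052), which also had 42.0% to 45.8% of their summed CPM in sham, beside 44.1% for Ccdc30. Nearest to Rttn were Galnt13 (0.065), Akap10 (0.066) and Exoc6 (0.073), with 10.8%, 9.69% and 6.98% in the occipital core beside 6.95% for Rttn. Nearest to Pde4dip were Sec24a (0.0097), Insr (0.015) and Enox1 (0.017).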

How the data were processed

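Per the labels' protocols, Trizol was used on perfused brain, rRNA was depleted and directional libraries followed, with a TruSeq and a NEBNext kit both named. The values used are the whole-number back-splice read counts per circRNA that the authors deposited, without normalization; TopHat2 2.0.10, Bowtie and the build mm9 are listed per the submitters' processing notes, and the circRNA caller is not given in the sources used here. The deposited FPKM table repeats these counts per span and library total and was not used. A deposited column of genomic span, an other measure, was used to check the coordinates. Coordinates fit GRCm38, not mm9: 89.1% of starts and 89.7% of ends lay on exon boundaries of GENCODE M21, so that annotation gave the host genes, exon numbers and spliced sequences. The exon numbers in circle names follow, for each gene, the transcript that most of its circles take. Spliced length, GC content and sequence come from a transcript holding both ends, protein-coding first and then with the most exons. Each library was matched to its column by the column name in its labels, and 0 columns were unmatched.

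Counts were divided by each library's circRNA total (CPM). Without replicates no dispersion can be estimated, so for each of the 6 pairs of libraries Fisher's exact test (two-sided, SciPy 1.17.1) set the count of every circRNA with 10 or more counts over the pair against the rest of its library, with Benjamini-Hochberg adjustment over all of them. Calls needed an adjusted p under 0.05 together with a difference of 2-fold or more. The test compares libraries, not conditions. It was tested on simulated data with known folds in abundant circRNAs and with counting error only. That says nothing of calls at low counts or of variation between pools. A count of 0 was set to 3 counts for a ratio, which leaves out the counting error of the other count. No molecular identifiers are named in the labels, so PCR copies may be counted as separate reads and intervals cover counting error only.

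The members and the gene lists were chosen with earlier results of these data known. Every member with 10 or more counts was given by its counts, and those with 30 or more, or called in any comparison, were described singly; of each gene list the 3 hosts with the most circle counts were named, and for each gene the 3 nearest host profiles. Alternatives were TMM factors (edgeR 4.0.16), DESeq2 1.42.0 size factors, no count filter, a minimum of 30 counts, an edgeR exact test with the coefficient of variation set to 0.2, no minimum ratio, a GC trend removed by lowess (fraction 0.4), and both ends on exon boundaries.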

Additional observations from a re-analysis of the deposited data

Results flagged for a closer look

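The circle of Cfap54 exons 57 to 66 lay above sham in the frontal core and below it in the occipital core, and neither was called against sham. It stood at 2.14 [1.17–4.10] of sham in the frontal core and at 0.401 [0.115–1.14] in the occipital core, where the interval reached 1. The direct comparison of the cores gave a ratio of 5.34 [2.10–17.4], which was called. That call is part of what chose the gene and is no independent evidence. It ended with no count filter and under the edgeR test. The cores share the sham library, and each is 1 library of pooled RNA. The depth of the occipital core was 83090 counts and that of the frontal core 121393, and 5 counts carry the lower value.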

How the results depend on the processing

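No paired analysis was possible because each group has 1 library, and for the same reason no replicate could be left out. Of 96 recounts of the members' calls, 79 gave the same count, 17 moved and 0 reversed. Under an edgeR exact test with the coefficient of variation set to 0.2 the members called lower were 0 in the frontal core to sham, 0 in the occipital core to sham and 0 in penumbra to the frontal core, and those called higher 0 in penumbra to the frontal core and 0 in the frontal core to the occipital core. Over the whole table that test called 1 circRNA, lower in penumbra to the frontal core, and 0 in every other comparison and direction. The loss of calls under it was thus general. With no count filter 0 were called lower in the occipital core to sham, 0 higher and 0 lower in penumbra to the frontal core, and 0 higher in the frontal core to the occipital core. Over the whole table at most 4 circRNAs were then called in a direction (frontal core to sham, lower, of 21388 tested). With a minimum of 30 counts 1 was called lower in penumbra to sham (the Ccdc30 circle), and 0 higher and 0 lower in penumbra to the frontal core, since both circles called there fall under that minimum. With the GC trend removed 0 were called higher and 0 lower in penumbra to the frontal core, and with TMM factors 0 lower in that comparison. With both ends on exon boundaries 0 were called lower in the frontal core to sham and 0 in the occipital core to sham, because the Ccdc30 circle is then no member. TMM factors moved every log2 ratio by up to 0.125 (penumbra to the occipital core) and by -0.113 in the occipital core to sham. Of 198 recomputed ratios 195 stayed within their interval, 3 moved and 0 reversed; the 3 are those of Ccdc30 summed over circles with both ends annotated, 1.04 in penumbra, 0.634 in the frontal core and 0.855 in the occipital core to sham. Counts limit the rest: 57 of 79 circles had fewer than 10 over all libraries, so the main rule could test none of them. In all, 62 of the 79 were never tested, and the lack of a call in them says nothing.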
